A study of Homo sapiens with 8 samples.

Results

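DNA replication licensing is the step of the cell cycle in which chromosomes are made ready to be copied. The genes followed here are 10 that encode its machinery, *MCM2*, *MCM3*, *MCM4*, *MCM5*, *MCM6*, *MCM7*, *MCM10*, *CDC6*, *CDT1* and *ORC1*. They were chosen by name, for their role in licensing, with earlier results of these data known. All 10 are among the 63241 genes of the NCI-H716 tables, and 6 of them (*MCM2*, *MCM3*, *MCM4*, *MCM6*, *MCM7* and *ORC1*) are among the 28043 genes of the HCT116 table, whose used part covers chromosomes 1 to 8 and 65 genes of chromosome 9. *MCM5*, *MCM10*, *CDC6* and *CDT1* lie on chromosomes 22, 10, 17 and 16 and were not analysed here in HCT116.

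Z325 (ZINC000101867325) is a small molecule that the study selected by docking against the fibroblast growth factor receptors, a family of receptor tyrosine kinases that drive growth signals. RNA-seq was performed in HCT116 and NCI-H716, both established human colorectal cancer lines, in a control and a Z325-treated group of 2 libraries each, 8 libraries in all. The labels call the treated libraries Test, and that these are the Z325-treated cells follows from the study's text, which also describes the repeats as biological duplicates. The compound was dissolved in DMSO, and the study set a working concentration from its viability assays for the experiments that followed, but it gives no separate dose, treatment time or vehicle control for these libraries.

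Totals over the listed genes were 13183792 to 13396225 counts in 3 of the HCT116 libraries and 3434620 in Z325 replicate 2, and 10210239 to 19738840 in NCI-H716. The cell line labels were checked against marker genes. *EPCAM*, an epithelial adhesion molecule, lay between 1424 and 1655 CPM (counts scaled to a common library total) in HCT116, whereas *VIL1*, a brush border protein, did not exceed 0.469 CPM there. In NCI-H716, 6 of 6 neuroendocrine markers and 7 of 9 epithelial markers reached 1 CPM. *KRT8*, a keratin, lay between 274 and 361 CPM there, whereas *CDH1*, the epithelial cadherin, did not exceed 0.53 CPM. In HCT116, 3 of 4 listed epithelial and 1 of 2 listed neuroendocrine markers reached 1 CPM, the latter *SCG2* at 14.6 to 22.5 CPM. Summed levels of 5 leukocyte markers and of the listed endothelial markers stayed at or below 1.06 CPM in every library of either line.

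In the cell, the origin recognition complex, of which ORC1 is the largest subunit, marks the sites where replication can start. CDC6 and CDT1 join it there and load the ring-shaped MCM2-7 helicase onto DNA, which licenses the origin, and MCM10 acts later, when the loaded helicase is switched on. Transcription of many of these genes is known to be driven by E2F factors as cells pass from G1 into S phase, and in colorectal tissue MCM proteins are widely used as a mark of cells that are in cycle.

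Because the members share this textbook regulation, their promoter windows were read from the RefSeq promoter table (GRCh38.p14), from 250 bases before to 50 after each annotated start. The table holds 8 of the 10 genes, 3 windows for *MCM7* and 1 for each of the others; *MCM4* and *MCM5* have no entry. The E2F site was searched on both strands in 4 forms, TTTCGCGC, TTTGGCGC, TTTCCCGC and TTTGCCGC. At least 1 of them was found in 6 of the 8 genes (*CDC6*, *CDT1*, *MCM2*, *MCM3*, *MCM6* and *MCM7*), against 3.99% of the 27305 genes in the table. The letters CCAAT, on either strand, were found in 6 of the 8 against 39.7% of genes, and TTTGAA, the CHR element, in 0 of the 8 against 18.2% of genes. Matches in *MCM2* and *MCM6* on opposite strands overlap each other, and the E2F match of *MCM7* nearest the start shares its last base with a CCAAT. A match is a description of the letters and not a bound site, and a missing match concerns these letters only. The windows of 4 genes are shown, 5′ to 3′ on the strand of the gene, with E2F matches in capitals. They are those of *MCM3* and *MCM7*, which fell in HCT116 and hold a match at the start, of *MCM6*, which holds the most matches (4), and of *ORC1*, which fell and holds none. The *MCM3* window lies at chr6:52284723-52284992, that of *MCM6* at chr2:135876424-135876693, that of *MCM7* (the third of its windows) at chr7:100101378-100101647 and that of *ORC1* at chr1:52404404-52404573, all on the minus strand. Each ends 20 bases into the gene and begins 250 bases before the start, or 150 for *ORC1*, whose neighbour begins upstream.
MCM3: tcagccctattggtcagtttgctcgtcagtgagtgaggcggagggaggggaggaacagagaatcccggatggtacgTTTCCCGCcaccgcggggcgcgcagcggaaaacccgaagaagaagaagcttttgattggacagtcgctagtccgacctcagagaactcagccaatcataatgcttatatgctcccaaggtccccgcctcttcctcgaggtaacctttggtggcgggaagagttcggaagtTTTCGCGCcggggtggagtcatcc
MCM6: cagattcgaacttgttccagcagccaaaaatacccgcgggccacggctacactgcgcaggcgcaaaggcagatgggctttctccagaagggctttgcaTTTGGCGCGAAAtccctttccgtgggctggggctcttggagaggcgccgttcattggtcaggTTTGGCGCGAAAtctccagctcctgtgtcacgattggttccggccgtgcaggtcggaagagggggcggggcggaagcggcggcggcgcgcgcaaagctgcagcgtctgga
MCM7: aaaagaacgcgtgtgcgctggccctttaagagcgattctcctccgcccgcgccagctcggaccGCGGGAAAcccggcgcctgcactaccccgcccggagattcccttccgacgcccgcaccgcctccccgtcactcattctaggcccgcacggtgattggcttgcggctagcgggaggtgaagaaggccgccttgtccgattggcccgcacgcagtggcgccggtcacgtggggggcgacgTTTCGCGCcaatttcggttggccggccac
ORC1: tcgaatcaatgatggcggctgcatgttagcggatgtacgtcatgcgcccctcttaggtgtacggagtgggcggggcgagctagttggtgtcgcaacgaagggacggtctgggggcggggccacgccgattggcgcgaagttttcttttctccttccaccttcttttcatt

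**Figure D1:**
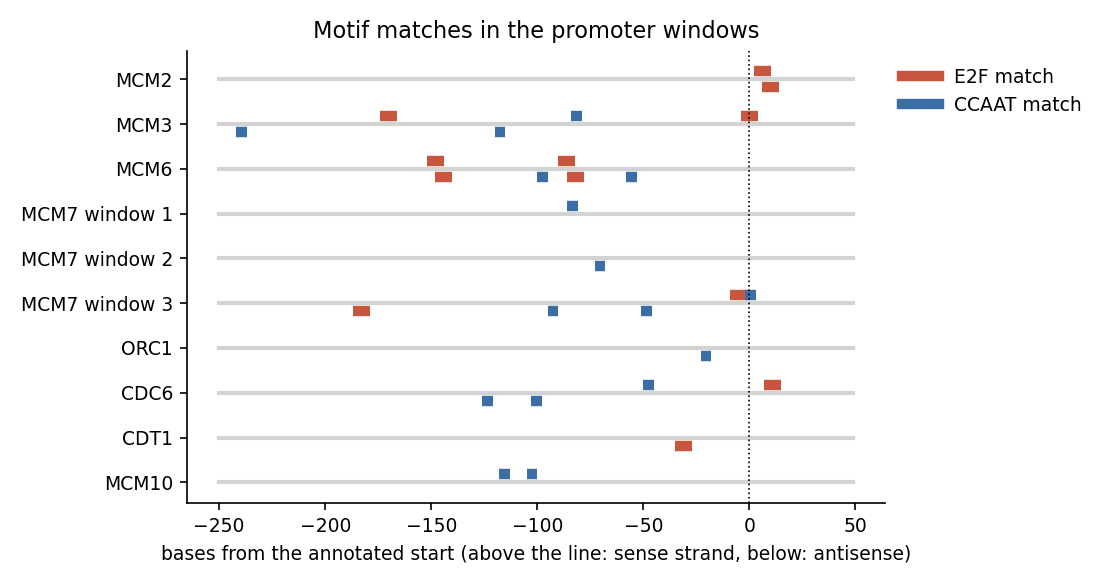
Positions of E2F (red) and CCAAT (blue) matches along the promoter windows, in bases from the annotated start, with matches on the gene's own strand above each line and those on the other strand below. *MCM6* holds 4 E2F matches, while *ORC1* and *MCM10* hold none.

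How abundant the members were was compared per gene length, as FPKM (fragments scaled by gene length and by library total), within each line. In control HCT116 cells the order was *MCM6* (144 and 169 FPKM), *MCM3* (75.3 and 78.4), *MCM7* (55.3 and 57), *MCM4* (13.2 and 14.4), *ORC1* (10.2 and 11.1) and *MCM2* (2.38 and 3.14). No neighbours in this order overlapped, and the order was the same in Z325-treated cells. The level of *MCM4* in HCT116 rests on a summed exon length of 9852 bases, whereas RSEM used a mean of 2361 bases for it in NCI-H716, so its place in the HCT116 order depends on the length. In control NCI-H716 cells *MCM7* was highest (98.6 and 99.3 FPKM), followed by *MCM3* (56.8 and 75.7), *CDC6* (31 and 31.8), *MCM6* (29.9 and 30.6) and *MCM5* (18.7 and 19.3). *MCM10* (13.8 and 18.1) and *MCM4* (14.7 and 16.6) overlapped, and *MCM2* (10.8 and 13), *CDT1* (7.98 and 9.32) and *ORC1* (5.24 and 6.52) were lowest. Levels were not compared between the lines, whose reads were counted with different tools.

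In HCT116, licensing genes were lower in Z325-treated cells. *MCM4*, *ORC1*, *MCM7* and *MCM3* fell, by between 1.83-fold and 2.62-fold, and *MCM2* and *MCM6* did not pass the test. Both Z325 libraries lay below both controls for 6 of the 6 members, as they did for 29.0% of the 6491 genes tested. At an adjusted p under 0.05 in edgeR, 4 of the 6 were lower and 0 higher, against 2.94% and 2.83% of all genes. At an unadjusted p under 0.05, 6 of 6 were lower and 0 higher, against 12.7% and 11.2%. The median log2 fold change of the 6 was −1.02, and that of all genes tested −0.03, with 51.8% of genes below 0. In these bulk libraries, fewer cells in S phase and less of each transcript per cell cannot be told apart.

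*ORC1* was the only member in the HCT116 table that is not an *MCM* gene, and other subunits of its complex follow below. It encodes the DNA-contacting ATPase subunit that starts assembly at the origin (ENSG00000085840, chromosome 1, 52372829 to 52404423, GRCh38). Its levels were 33.4 and 32.2 CPM in the control libraries and 14 and 11.7 CPM in the Z325 libraries. The treated libraries were both far below the controls, without overlap, and the shallow Z325 replicate 2 held 41 counts. The log2 fold change was −1.34 (SE 0.26, edgeR quasi-likelihood test, adjusted p = 0.0277). With every library thinned to the depth of the shallowest, the fold change was −1.06 and the edgeR adjusted p 0.0548. The window of *ORC1* printed above holds none of the E2F forms searched.

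Among the helicase subunits, *MCM4*, a subunit of the MCM4/6/7 subcomplex that can unwind DNA in vitro (ENSG00000104738, chromosome 8), was at 137 and 131 CPM in control and 50.3 and 51.9 CPM in Z325-treated cells. The replicates of each group were close and the groups did not overlap. Its log2 fold change was −1.39 (SE 0.17, adjusted p = 0.00499 from edgeR), a mean level 61.9% lower. *MCM7*, its ring partner (ENSG00000166508, chromosome 7, 100092233 to 100101940), was at 234 and 253 CPM in control and 102 and 118 CPM in treated cells. The treated libraries were again both below the controls. Its log2 fold change was −1.15 (SE 0.15, adjusted p = 0.00674 from edgeR). *MCM7* shares 7.90% of its exon bases with *AP4M1* on the other strand and 0.58% with the microRNA gene *MIR93* that it hosts, so its value is uncertain.

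*MCM3*, the partner of MCM5 in the ring and a contact of the loading complex (ENSG00000112118, chromosome 6, 52264014 to 52284881), was at 276 and 278 CPM in control and 140 and 162 CPM in Z325-treated HCT116 cells. The controls were almost identical and the treated libraries lay clear below them. Its log2 fold change was −0.87 (SE 0.14, adjusted p = 0.014 from edgeR). *MCM6*, the most abundant subunit in this line (ENSG00000076003, chromosome 2, 135839626 to 135876443), was at 575 and 709 CPM in control and 476 and 497 CPM in treated cells. The controls were far apart, and the lower of them was nearer to the treated libraries than to the other control. Its log2 fold change of −0.40 (SE 0.14, adjusted p = 0.134 from edgeR) was the smallest of the 6 and had a 95% interval of −0.72 to −0.08. *MCM2*, a subunit whose tail also binds histones (ENSG00000073111, chromosome 3, 127598410 to 127622436), was at 10.8 and 15 CPM in control and 6.8 and 7.16 CPM in treated cells. It was the member with the fewest counts, 25 in Z325 replicate 2, and its log2 fold change of −0.89 had the largest error (SE 0.35, adjusted p = 0.173 from edgeR). *MCM2* shares 23.61% of its exon bases with a long noncoding RNA on the other strand and is uncertain.

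The HCT116 calls were lost without either control library, while the fold changes of the called members moved little. Without control replicate 1 the log2 fold changes were −1.37 (*MCM4*), −1.32 (*ORC1*), −1.21 (*MCM7*) and −0.88 (*MCM3*). Without control replicate 2 they were −1.43, −1.38, −1.10 and −0.88. Those of *MCM2* (−1.11 and −0.65) and *MCM6* (−0.55 and −0.25) moved more. Such a fit takes its spread from the Z325 pair alone. Without control replicate 1, and also without control replicate 2, 0 of the 6 members were lower at an adjusted p under 0.05 in edgeR, with 6 and 4 at an unadjusted p under 0.05. Over all genes the same fits called 44 and 23 genes in place of 375. Without the shallow Z325 replicate 2 the same 4 members were called. The 6 log2 fold changes stayed below 0 whichever library was left out. In the fibroblast marker list, which moved with treatment through *SPARC* in control replicate 2, the summed level was 7.74 to 32.9 CPM in control and 5.44 to 7.59 CPM in treated cells, and its part in the result was not tested.

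**Figure D2:**
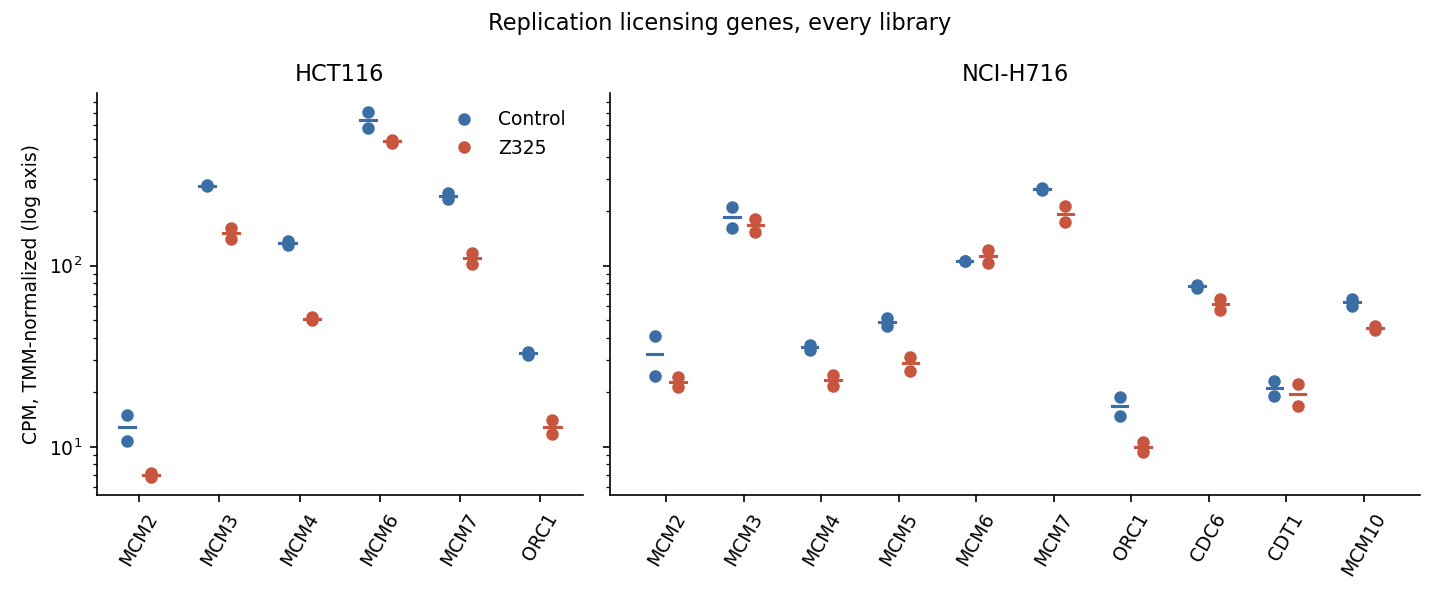
TMM-normalized CPM of each member (log axis) in the control (blue) and Z325-treated (red) libraries of HCT116 and NCI-H716; points are libraries and bars are means of 2. In HCT116 the treated points lie below the controls for all 6 genes shown, and in NCI-H716 they overlap for *MCM3*, *MCM6* and *CDT1*.

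In NCI-H716, 9 of the 10 members had a negative log2 fold change, and 0 of the 10 passed the test. At an adjusted p under 0.05 in edgeR, 0 were lower and 0 higher, against 0.0990% and 0.403% of the 14142 genes tested. At an unadjusted p under 0.05, 5 were lower (*MCM5*, *ORC1*, *MCM4*, *MCM7* and *MCM10*) and 0 higher, against 9.27% and 7.59%. With limma on log2(FPKM + 1), 2 of the 10 were lower at that level, as were 1020 of the 14142 genes. The member count was also 2 on log2(FPKM + 0.1). On CPM, both Z325 libraries lay below both controls for 7 of the 10, against 25.1% of all genes. The median log2 fold change of the 10 was −0.46, and that of all genes −0.01. DESeq2 called 1 member, *MCM5*, as did edgeR with no filter on low counts. Those fits called 316 and 777 genes in all, against 71 in the main edgeR fit.

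Of the loading factors among the members in NCI-H716, *ORC1* was at 18.9 and 14.7 CPM in control and 10.6 and 9.4 CPM in Z325-treated cells. The treated libraries were both lower, and its log2 fold change was −0.75 (SE 0.25, adjusted p = 0.191 from edgeR). *CDC6*, the ATPase that completes the loading ring with ORC (ENSG00000094804, chromosome 17, 40287879 to 40304657), was at 77.9 and 75.8 CPM in control and 56.7 and 65.9 CPM in treated cells. On CPM the groups did not overlap, but the treated libraries differed from each other by more than the controls did. On FPKM they overlapped, at 31.8 and 31 in control and 25.3 and 32.1 in treated cells. The log2 fold change of *CDC6* was −0.33 (SE 0.17, adjusted p = 0.364 from edgeR), and −0.14 with limma on log2(FPKM + 1). *CDT1*, the escort that brings the helicase to ORC and CDC6 (ENSG00000167513, chromosome 16, 88803789 to 88809258), was at 23 and 19 CPM in control and 16.8 and 22.2 CPM in treated cells. These groups overlapped. Its log2 fold change was −0.11 (SE 0.23, adjusted p = 0.857 from edgeR), with a 95% interval of −0.62 to 0.41, and it turned to 0.05 without control replicate 1 and to 0.09 without Z325 replicate 1.

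Of the helicase subunits in NCI-H716, *MCM5*, part of the MCM2/MCM5 gate through which DNA enters the ring (ENSG00000100297, chromosome 22, 35400134 to 35425431), was at 51.5 and 46.5 CPM in control and 31.4 and 26.3 CPM in treated cells. The groups were well apart, and the log2 fold change of −0.77 (SE 0.19, adjusted p = 0.12 from edgeR) was the lowest of the 10. *MCM4* was at 34.1 and 36.6 CPM in control and 21.7 and 24.9 CPM in treated cells, also without overlap, with a log2 fold change of −0.60 (SE 0.20, adjusted p = 0.191 from edgeR). *MCM7* was at 261 and 268 CPM in control and 175 and 213 CPM in treated cells, with a log2 fold change of −0.45 (SE 0.16, adjusted p = 0.226 from edgeR). The treated pair of *MCM7* was far more spread than its control pair. *MCM2*, at 24.5 and 40.7 CPM in control and 21.5 and 24.3 CPM in treated cells, rested on control replicate 2: its log2 fold change was −0.50 (SE 0.25, adjusted p = 0.342 from edgeR) with that library and −0.08 without it.

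*MCM3* and *MCM6* were the subunits whose groups overlapped in NCI-H716. *MCM3* was at 162 and 210 CPM in control and 154 and 182 CPM in treated cells, and its log2 fold change of −0.15 (SE 0.18, adjusted p = 0.726 from edgeR) turned to 0.06 without control replicate 2. *MCM6* was at 106 CPM in both controls and at 103 and 122 CPM in treated cells. It was the member with a positive log2 fold change, 0.09 (SE 0.17, adjusted p = 0.828 from edgeR, 95% interval −0.28 to 0.46), which turned to −0.02 without Z325 replicate 2. *MCM10*, the activation factor (ENSG00000065328, chromosome 10, 13161558 to 13211110), was at 60.1 and 65.3 CPM in control and 44.4 and 46.3 CPM in treated cells. Its groups were narrow and apart, and its log2 fold change was −0.47 (SE 0.17, adjusted p = 0.231 from edgeR). In the same libraries the summed neuroendocrine markers were at 699 to 783 CPM in control and 867 to 1062 CPM in treated cells, the epithelial markers at 761 to 798 and 653 to 672 CPM, and the fibroblast markers, nearly all *COL3A1*, at 249 to 270 and 314 to 358 CPM. Their part in the member values was not tested.

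The difference between the lines was tested directly, as the interaction of treatment and line over the 8 libraries. The lines were counted with different tools, so line and tool cannot be told apart in this test. Of the 6 shared members, 0 passed an adjusted p of 0.05 in edgeR and 0 in DESeq2, against 0.0654% of the 7642 genes tested in edgeR. At an unadjusted p under 0.05, 4 of the 6 differed (*MCM3*, *MCM4*, *MCM6* and *MCM7*), against 14.3% of genes. All 6 estimates were positive, that is, the log2 fold change was more negative in HCT116. For *MCM4* the log2 fold change was higher in NCI-H716 by 0.78 (95% interval 0.24 to 1.33, adjusted p = 0.213 from edgeR). For *MCM7* the difference was 0.69 (0.21 to 1.16, adjusted p = 0.21 from edgeR) and for *MCM3* 0.72 (0.21 to 1.22, adjusted p = 0.213 from edgeR). The intervals of *ORC1* (−0.25 to 1.38) and *MCM2* (−0.53 to 1.28) included 0. All 6 differences stayed positive when any of the 8 libraries was left out.

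**Figure D3:**
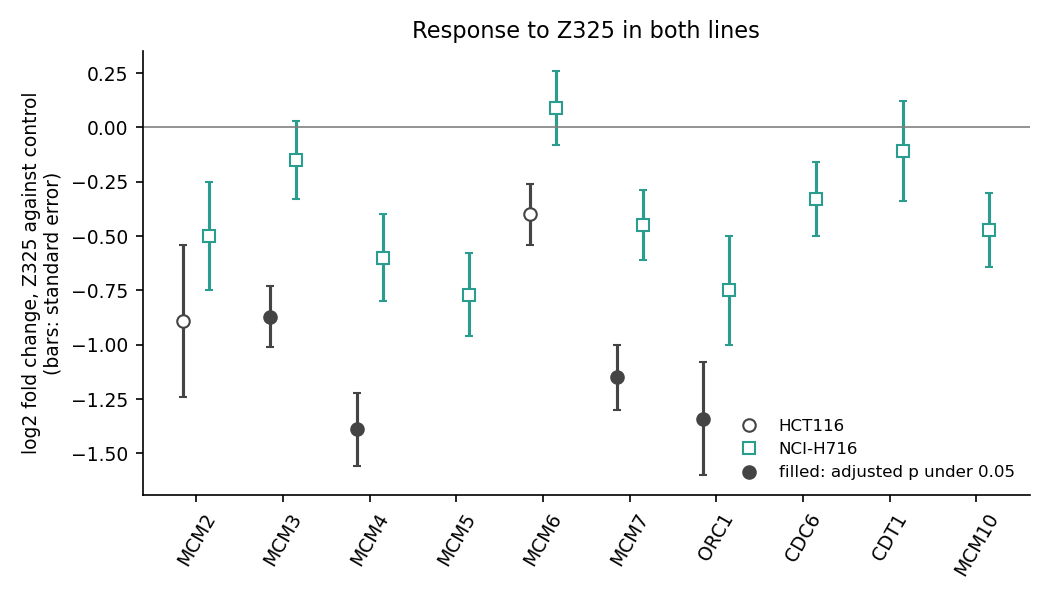
Log2 fold change of each member, Z325 against control, in HCT116 (circles) and NCI-H716 (squares), with standard errors as bars and filled symbols for an adjusted p under 0.05 in edgeR. The 4 filled symbols are all HCT116, and *MCM6* is the highest point of each line.

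The MCM2-7 ring holds its subunits in equal number, so the make-up of the transcript pool was followed as each subunit's share of their summed FPKM within a library. In HCT116 the share of *MCM6* was 48.9% and 53.3% in control and 62.7% and 60.5% in Z325-treated cells, higher in both treated libraries by a mean of 10.5 percentage points. The shares of *MCM7* (mean 18.3% to 13.1%), *MCM3* (25.2% to 21.7%) and *MCM4* (4.51% to 2.72%) were lower in both. With the RSEM lengths in place of exon lengths the share of *MCM4* was larger, 14% and 8.95%, and that of *MCM6* went from 42% to 53.9%. The summed FPKM of the 5 listed subunits was 294 and 318 in control and 175 and 202 in treated cells. In NCI-H716, with 6 subunits listed, the share of *MCM6* was 12.9% and 12.2% in control and 16.4% and 15.9% in treated cells, again higher in both, by 3.66 percentage points. The shares of *MCM5* (7.88% to 6.16%) and *MCM2* (4.91% to 3.62%) were lower in both treated libraries, and those of *MCM3*, *MCM4* and *MCM7* overlapped. On CPM in place of FPKM, *MCM6* was again higher and *MCM5* lower in both treated libraries of NCI-H716, but the shares of *MCM2* overlapped (a change of −0.619 points in place of −1.29), *MCM3* was higher, and *MCM4* and *MCM7* were lower. These shares are descriptions over 2 libraries a group, for which an exact two-sided permutation test cannot go below p = 0.333.

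For 3 members, a protein-coding gene starts close by on the other strand and runs the opposite way. *MCM4* and *PRKDC*, a DNA repair kinase, start 7 bases apart. In HCT116, *PRKDC* was at 533 and 431 CPM in control and 443 and 417 CPM in treated cells, groups that overlapped (log2 fold change −0.16, SE 0.14, adjusted p = 0.544 from edgeR). *MCM4* held 25.6% and 30.4% of the counts of *PRKDC* in control and 11.3% and 12.4% in treated cells, so the members of this pair changed unequally. *ORC1* and *PRPF38A*, a splicing factor, start 179 bases apart, and *PRPF38A* was at 301 and 338 CPM in control and 368 and 357 CPM in treated cells (log2 fold change 0.18, SE 0.13, adjusted p = 0.44 from edgeR). The counts of *ORC1* were 11.1% and 9.52% of those of *PRPF38A* in control and 3.8% and 3.29% in treated cells. *MCM2* and *TPRA1*, a membrane protein gene, start 143 bases apart. *TPRA1* shares 10.80% of its exon bases with a long noncoding RNA on its own strand and is uncertain. In HCT116, *TPRA1* had a log2 fold change of −0.81 (SE 0.40, adjusted p = 0.267 from edgeR) and the ratio of *MCM2* to *TPRA1* overlapped between groups. Without Z325 replicate 2, *TPRA1* had a log2 fold change of −1.16 and passed (adjusted p = 0.0216 from edgeR). In NCI-H716, *PRKDC*, *PRPF38A* and *TPRA1* had log2 fold changes of −0.28, −0.23 and −0.24, and 0 of the 3 passed in edgeR, also at an unadjusted p under 0.05. There the ratios of *MCM4* to *PRKDC* (19.4% and 17.3% in control, 14.2% and 15% in treated cells) and of *ORC1* to *PRPF38A* (21.5% and 17.3%, 13.2% and 13.9%) were lower in treated cells as well.

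The rest of the pathway was followed in 7 lists of 105 genes. In HCT116, 41 of them were tested, of which edgeR called 9 lower and 0 higher at an adjusted p under 0.05, against 2.94% and 2.83% of all genes, with a median log2 fold change of −0.41. Leaving out control replicate 1 gave 1 lower gene, and leaving out control replicate 2 gave 0. In NCI-H716, 102 were tested, 0 passed in edgeR, 30 were lower and 5 higher at an unadjusted p under 0.05, against 9.27% and 7.59% of all genes, and the median was −0.31. DESeq2 called 10 of the NCI-H716 genes lower, with 316 genes called in all, against 71 in the main edgeR fit.

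Of the other subunits of the origin recognition complex, 0 passed the test in either line. In HCT116, *ORC3*, a structural subunit, was at 769 and 873 CPM in control and 1198 and 1101 CPM in treated cells (log2 fold change 0.49, SE 0.13, adjusted p = 0.0655 from edgeR), and *ORC4*, an ATPase-fold subunit, was at 434 and 428 CPM in control and 565 and 486 CPM in treated cells (0.29, SE 0.13, adjusted p = 0.226 from edgeR). Both had higher values in both treated libraries, whereas *ORC5* had a log2 fold change of −0.03. The median of the 4 tested subunits was 0.15, with 0 called and 1 higher at an unadjusted p under 0.05, against 11.2% of all genes. In NCI-H716 the median of 5 was −0.13, with 0 called and 0 at an unadjusted p under 0.05. The smallest p there was that of *ORC6*, with a log2 fold change of −0.23.

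Genes that control licensing included 2 of 5 that fell in HCT116, against 2.94% of all genes. *SKP2*, the F-box protein that targets CDT1 for degradation, went from 141 and 177 CPM to 67.2 and 77.6 CPM (log2 fold change −1.14, SE 0.18, adjusted p = 0.0138 from edgeR), and *DTL*, the CRL4 adaptor that removes CDT1 in S phase, went from 139 and 150 CPM to 75.5 and 93.7 CPM (−0.78, SE 0.17, adjusted p = 0.0391 from edgeR). *GMNN*, which encodes geminin, the inhibitor of CDT1, had a log2 fold change of −0.24 (adjusted p = 0.281 from edgeR). In NCI-H716, 0 of 11 passed in edgeR and 2 were lower at an unadjusted p under 0.05, against 9.27% of all genes. *SKP2* and *DTL* again had the smallest p of the list, with log2 fold changes of −0.81 and −0.69 and adjusted p of 0.103 and 0.155 from edgeR. On the opposite strand, other genes cover 2.10% of the exon bases of *SKP2* and 0.10% of those of *DTL*.

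Firing factors turn loaded helicases on, and fork proteins then copy the DNA. In HCT116, 0 of 6 firing factors passed, and the median was −0.23. At an unadjusted p under 0.05 in edgeR, 3 were lower (*RECQL4*, *TOPBP1* and *DBF4*), against 12.7% of all genes. In NCI-H716, 0 of 13 passed, and 3 were lower at an unadjusted p under 0.05 in edgeR, against 9.27% of all genes. They were *CDC45* (log2 fold change −0.88), *GINS2* (−0.65) and *GINS1* (−0.64), which encode proteins that join the MCM ring to form the active helicase. Of the 9 fork genes tested in HCT116, *PRIM2*, the large primase subunit, fell from 54.6 and 52.8 CPM to 22.1 and 21.8 CPM (−1.29, SE 0.22, adjusted p = 0.0171 from edgeR). *POLD2*, a subunit of DNA polymerase delta, fell from 236 and 357 CPM to 105 and 143 CPM (−1.27, SE 0.23, adjusted p = 0.0199 from edgeR). In NCI-H716, 31 of 32 fork genes had a negative value, against 50.6% of all genes, 15 were lower at an unadjusted p under 0.05, against 9.27%, and 0 passed. *ASF1B*, a histone chaperone, had the smallest p there, with a log2 fold change of −1.10 (SE 0.23, adjusted p = 0.0836 from edgeR).

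Among regulators of E2F genes, *RBBP4*, a histone-binding subunit of the DREAM complex, fell in HCT116 (−0.68, SE 0.15, adjusted p = 0.0391 from edgeR) and was the only 1 of 7 to pass. It shares 22.81% of its exon bases with *SYNC* and is uncertain. *LIN54*, the DNA-binding subunit of DREAM, had a value of −0.75 and *E2F5*, a repressor-type E2F, 0.66, neither of which passed. *E2F5* shares 16.62% of its exon bases with *RBIS* on the other strand and is uncertain. In NCI-H716 the repressor *E2F6* went from 26 and 25.5 CPM to 45.6 and 41.9 CPM (0.76, SE 0.19, adjusted p = 0.118 from edgeR), and *TFDP1*, the dimer partner of E2F proteins, from 122 and 119 CPM to 81.2 and 74.1 CPM (−0.63, SE 0.16, adjusted p = 0.128 from edgeR). *E2F4*, another E2F factor, had the opposite sign to *E2F6*. It went from 25.8 and 18.6 CPM to 14.2 and 9.2 CPM (−0.94, SE 0.28, adjusted p = 0.167 from edgeR). Their groups did not overlap, but 0 of the 20 genes passed in edgeR, with 3 lower and 1 higher at an unadjusted p under 0.05.

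*RRM2*, the S-phase subunit of ribonucleotide reductase, fell in HCT116 from 1723 and 1927 CPM to 1055 and 1051 CPM (−0.79, SE 0.12, adjusted p = 0.0134 from edgeR). It was the only 1 of 3 nucleotide supply genes to fall, against 2.94% of all genes. In NCI-H716 it was at 420 and 426 CPM in control and 240 and 279 CPM in treated cells (−0.70, SE 0.16, adjusted p = 0.0983 from edgeR). Of 7 G1/S genes in HCT116, 3 fell, against 2.94% of all genes. *CCNA2*, the S-phase cyclin, had a log2 fold change of −0.75 (SE 0.14, adjusted p = 0.0207 from edgeR). *CDK6*, a kinase that acts on RB in G1, had −1.02 (SE 0.21, adjusted p = 0.0292 from edgeR), and *CDKN2C*, an inhibitor of CDK4 and CDK6, had −1.99 (SE 0.46, adjusted p = 0.0438 from edgeR) at 6.94 and 8.44 CPM in control cells. The values of *CCNA2* and *CDKN2C* are uncertain, since opposite-strand genes cover 9.24% and 20.44% of their exon bases. In NCI-H716, 0 of 13 G1/S genes passed in edgeR, 4 were lower and 3 higher at an unadjusted p under 0.05, 8 had a negative value and the median was −0.37. *CCND1*, a G1 cyclin, was at 201 and 153 CPM in control and 130 and 108 CPM in treated cells there (−0.58, SE 0.19, adjusted p = 0.185 from edgeR), and is uncertain because *LTO1* on the opposite strand covers 10.44% of its exon bases. *CDK6* was at 70.3 and 98.5 CPM in control and 118 and 157 CPM in treated NCI-H716 cells (0.71, SE 0.21, adjusted p = 0.168 from edgeR), a value of the opposite sign to that in HCT116 that did not pass. *CDKN1B*, the CDK inhibitor p27 that SKP2 targets, was at 12.1 and 15.9 CPM in control and 20.8 and 34 CPM in treated NCI-H716 cells (0.97, SE 0.28, adjusted p = 0.156 from edgeR).

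**Figure D4:**
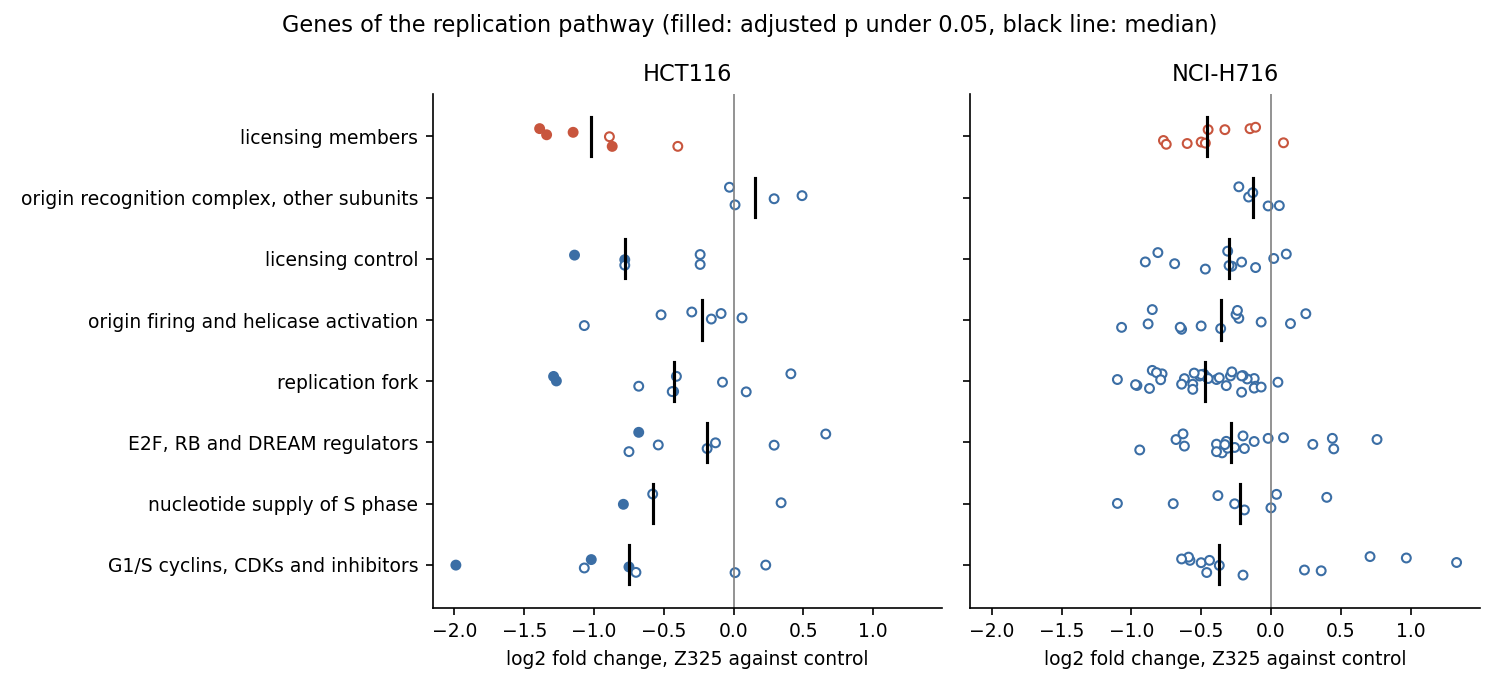
Log2 fold changes, Z325 against control, of the licensing members (red) and of the genes of 7 lists (blue) in HCT116 and NCI-H716; filled points have an adjusted p under 0.05 in edgeR and black lines are medians. The members' median of −1.02 in HCT116 lies left of that of the other ORC subunits, 0.15.

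Last, genes with the most similar pattern were sought among 2980 genes with a mean of at least 10 CPM in each line. The measure was Pearson's r between a gene's log2 CPM, centred within each line, and the mean of the 6 shared members, over the 8 libraries. The 5 highest were *PAICS* (r = 0.992), a purine synthesis enzyme, *CRYBG1* (0.988), *FUBP1* (0.987), a single-strand DNA-binding protein, *ICMT* (0.985), a methyltransferase of prenylated proteins, and *EXO1* (0.984), a DNA repair exonuclease. Their log2 fold changes in HCT116 ran from −1.36 for *CRYBG1* to −0.33 for *PAICS*. Among the members, each against the mean of the others, *MCM7* (0.988) and *MCM4* (0.986) were closest to the rest, followed by *MCM3* (0.934), *ORC1* (0.877), *MCM2* (0.848) and *MCM6* (0.724). The 8 points share their libraries and scaling, and these values are descriptions without a test.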

How the data were processed

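The authors deposited RSEM expected counts, TPM and FPKM per gene for every NCI-H716 library, and raw counts per gene for the 4 HCT116 libraries, with positions and exon lengths. The study's methods name TrimGalore, STAR, GRCh38 and RSEM, and the submitters' processing notes name Bowtie2 2.5.0, featureCounts and hg38, without roles. How reads shared between overlapping genes were counted, and whether strand was used, is not given in the sources used here. SMART-Seq2 amplification has no molecular identifiers, so counts are of reads. The TPM was not used, the deposited FPKM gave the NCI-H716 levels and shares, and FPKM for HCT116 was computed here from counts, exon lengths and library totals. Of 28047 lines in the HCT116 table, 4 were left out as broken or unfinished. No per-sample column was left unused for want of a sample. NCI-H716 gene identifiers were paired with symbols through GENCODE v44 (62666 of 63241).

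Expected counts were rounded, and each line was fitted alone over all genes with edgeR 4.0.16 in R 4.3.3 (TMM, filterByExpr, quasi-likelihood test, Benjamini-Hochberg adjustment over all genes tested, threshold 0.05). CPM values are TMM-normalized, and a 95% interval uses the t distribution of that test. The p-values set the difference between groups against the spread between libraries of a group. That spread is estimated with information shared over all genes. The count model replaced the t-test on FPKM of the study's methods. The spread between replicates, as edgeR's common biological coefficient of variation, came to 0.245 (HCT116) and 0.203 (NCI-H716). The interaction of treatment and line was fitted over 8 libraries and 7642 genes. The steps were tested on simulated data. Alternatives were DESeq2 1.42.0, library size alone, no filter, at least 10 counts in every library, limma 3.58.1 on log2(FPKM + 1) and log2(FPKM + 0.1), a mean FPKM of at least 1, a replicate block, 1 fit of all 8 libraries, thinning to the shallowest library and leaving out each library. Recomputing the 7 lists and the neighbours under these, and the RSEM lengths for HCT116, were added after seeing the data.

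The members and lists were chosen with earlier results of these data known. Named are all members, up to 3 tested genes per list and line with the smallest p, protein-coding neighbours that start within 1000 bases on the other strand, and the 5 genes of most similar pattern.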

Additional observations from a re-analysis of the deposited data

How the results depend on the processing

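Alternatives were computed for 43 results, which gave 485 values. In HCT116, the number of members lower at an adjusted p under 0.05 was 4 with edgeR and with DESeq2, 3 after thinning (without *ORC1*), and 0 with limma on log2(FPKM + 1), on log2(FPKM + 0.1) and at a mean FPKM of at least 1, where 6, 6 and 5 members had an unadjusted p under 0.05 and 47, 37 and 35 genes were called in all. The count over the 7 lists, 9, was also 0 in the 3 limma fits. With 1 library left out, the members called ranged from 0 to 4, the list genes from 0 to 13, the neighbours from 0 to 1 (*TPRA1*, without Z325 replicate 2) and the median from −1.16 to −0.96. In NCI-H716, 1 member was called with DESeq2 and 1 with no filter, with 10 and 11 list genes, of 316 and 777 genes called in all. The median was −0.36 with limma on log2(FPKM + 1), with or without the minimum mean FPKM, and the share of *MCM6* rose by 4.72 points on CPM in place of FPKM. With 1 library left out, 0 to 1 members and 0 to 16 list genes were called and the median ranged from −0.53 to −0.36. Directions turned for *MCM6* (−0.02 to 0.21), *MCM3* (−0.32 to 0.06) and *CDT1* (−0.31 to 0.09), and for the share of *MCM3* (−0.00361 to 5.74 points) and of *MCM4* (−1.44 to 0.885 points). The cause was not tested.

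With the replicate number as a replicate block, HCT116 had 4 member calls and 9 list calls, and NCI-H716 had 6 member calls and 31 list calls, of 2397 genes called in all. Deviations of same-numbered libraries correlated at −0.0217 in HCT116 and 0.286 in NCI-H716. With 2 pairs the numbers do not establish a pairing.

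Depth limits *MCM2* and *ORC1* most in HCT116, with 25 and 41 counts in Z325 replicate 2. Leaving a library out leaves a group with 1 sample, which the fit assumes to vary like the others.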
